A study of Homo sapiens with 5 samples.

Results

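Isolated RUNX1 peaks are the RUNX1 peaks of MOLT-4 cells that stood alone. They had no other RUNX1 peak and no H3K4me3 peak within 50 kb, measured from edge to edge on chromosomes 1 to 22 and X. The rule found 2815 such peaks among 36736 RUNX1 peaks (7.66%). They were chosen by the positions in the RUNX1 and H3K4me3 lists, so their distance from those peaks is given as a description. SMA4 peaks played no part in the choice, and "isolated" therefore says nothing of SMA4.

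The study profiled MOLT-4, an established cell line from a human acute leukaemia of the T lineage (T-ALL). The assay was CUT&RUN, in which an antibody tethers a nuclease to chromatin and the released fragments are sequenced. All samples are of this line, grown in RPMI-1640 with serum, the labels name no drug or genetic change, and the groups are told apart by the antibody: anti-RUNX1, anti-H3K4me3, and an antibody whose target is labelled SMA4, a name used here as given. Each antibody had 1 library, so no value below has a replicate check. The peak lists give positions only, with no height, score or read count, so the depth behind a peak is unknown. The 2 IgG control samples were not used here.

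RUNX1 is a DNA-binding transcription factor of the runt family that works with its partner CBFB in blood stem cells, T cells and T cell leukaemia. It binds promoters and, far more widely, distal enhancers, which often lie in groups around the genes they control. H3K4me3 is the histone mark of active and poised promoters, so a peak far from any H3K4me3 peak lies far from the promoters that carry the mark in these cells. Large stretches of the human genome hold few genes and are known as gene deserts. An annotation of the build of the files, hg19, was not used here, so no peak was tied to a gene, an exon or an intron, and no sequence is shown. Marked promoters, counted as H3K4me3 peaks within 1 Mb, stand in for gene density.

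Isolated peaks were compared with RUNX1 peaks of 3 other kinds, set by what lay within 50 kb. The first kind, 9745 peaks, had another RUNX1 peak but no H3K4me3 peak nearby and is called grouped distal here. The second kind, 1643 peaks, had an H3K4me3 peak but no other RUNX1 peak nearby and is called single near the mark. The remaining 22533 peaks had both and are called grouped near the mark. Most RUNX1 peaks thus lay in company, and the isolated ones covered 1.60 Mb, 5.48% of the sequence in RUNX1 peaks.

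The distance from an isolated peak to the nearest RUNX1 or H3K4me3 peak had a median of 90.6 kb, with quartiles of 64.7 and 154 kb and a maximum of 3379 kb. Over all RUNX1 peaks, the median distance to the nearest other RUNX1 peak was 5.41 kb. The nearest peak was another RUNX1 peak for 2296 isolated peaks (81.6%) and an H3K4me3 peak for 519 (18.4%). The nearest H3K4me3 peak lay at a median of 181 kb, against 128 kb for grouped distal peaks, which were also chosen to be over 50 kb from the mark. On the emptier of their sides, isolated peaks had a median of 220 kb to the next peak. Numbers fell steadily with distance: 1248 isolated peaks were over 100 kb from any RUNX1 or H3K4me3 peak, 385 over 250 kb, 134 over 500 kb and 39 over 1000 kb.

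**Figure D1:**
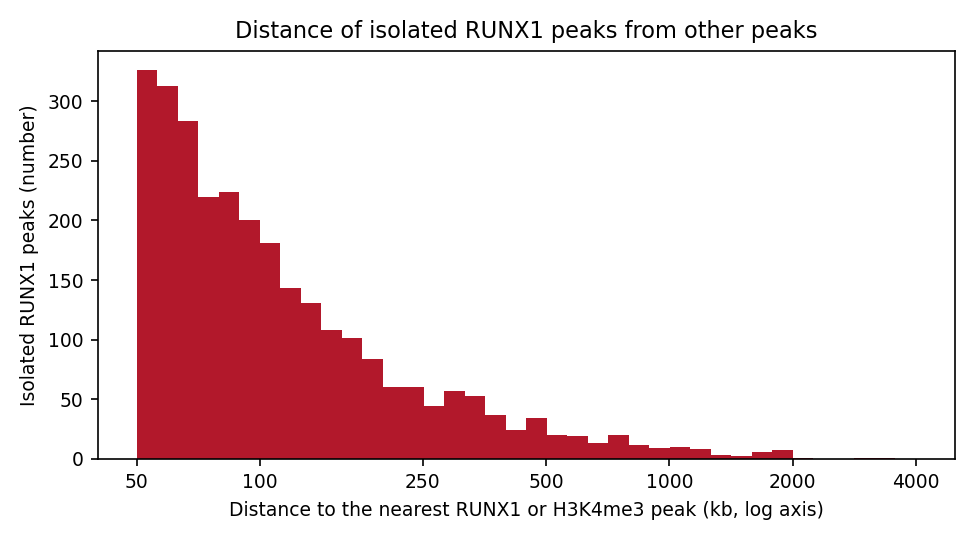
Number of isolated RUNX1 peaks (vertical axis) by distance to the nearest RUNX1 or H3K4me3 peak (horizontal axis, kb, log scale); the median is 90.6 kb. The bars are highest just above the 50 kb threshold, and 134 of the 2815 peaks lie beyond 500 kb.

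The threshold cut through a continuous range. Just inside it, a peak on chromosome 17 (10178423 to 10178724) had its neighbour 50018 bp away, and peaks on chromosome 5 (88029773 to 88030186, and 54039887 to 54040597) had theirs at 50059 and 50068 bp. Just outside it, peaks on chromosomes 22 (32446581 to 32446813), 20 (49186297 to 49187293) and 1 (222010930 to 222011728) had neighbours at 49926, 49920 and 49912 bp. Their widths ran from 302 to 711 bp inside and from 233 to 997 bp outside, so the 2 sets overlapped.

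Isolated RUNX1 peaks were narrow. Their median width was 506 bp (95% interval of the median 490 to 518 bp), with quartiles of 308 and 721 bp and a range of 221 to 2881 bp. Grouped distal peaks had a median of 554 bp, grouped peaks near the mark 697 bp, and single peaks near the mark 1004 bp. Broad peaks were few: 248 isolated peaks (8.81%, 95% interval 7.79 to 9.92%) exceeded 1 kb, against 26.2% of all RUNX1 peaks and 50.3% of single peaks near the mark. No isolated peak reached 3 kb, while the widest RUNX1 peak elsewhere spanned 11712 bp. Widths come from the list that the rule used, so they were not tested.

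**Figure D2:**
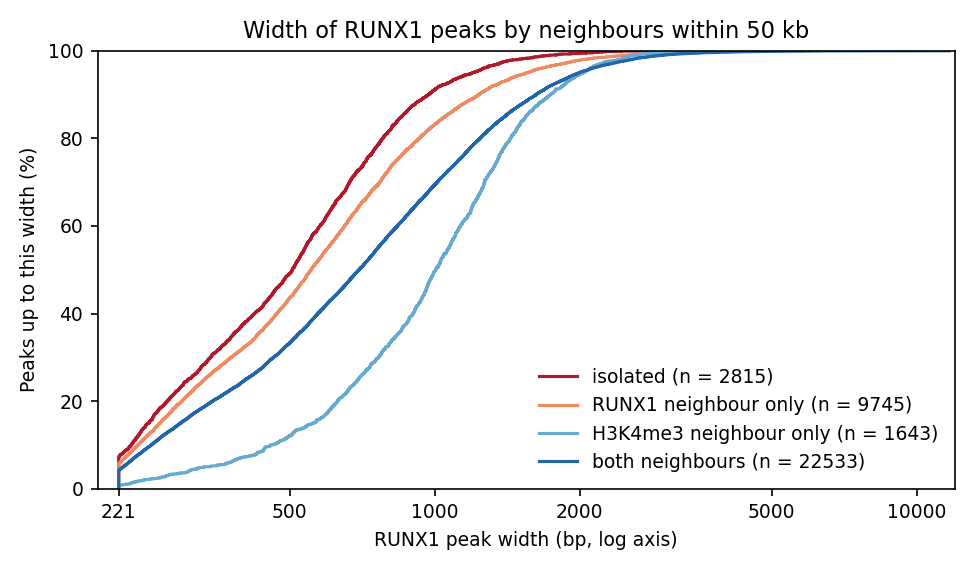
Cumulative share of RUNX1 peaks (vertical axis, %) up to a given width (horizontal axis, bp, log scale), with 1 line for each kind of neighbourhood within 50 kb. The line of isolated peaks lies to the left of the others (median 506 bp), and that of single peaks with only an H3K4me3 neighbour lies farthest right (median 1004 bp).

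At the bottom of the range, 207 isolated peaks were exactly 221 bp wide, the minimum width of the RUNX1 list. That is 7.35% (exact 95% interval 6.42 to 8.38%), against 4.73% of all RUNX1 peaks. The share was 5.74% in grouped distal peaks, 4.26% in grouped peaks near the mark and 0.791% in single peaks near the mark. A peak caller gives this width to the smallest regions it accepts. The lists hold no score with which to rank such peaks, so their part in the number of isolated peaks was assessed only by leaving them out. With minimum-width peaks left out of both lists, as members and as neighbours, 2805 peaks were isolated, because peaks with only such a neighbour entered.

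Width hardly moved with the degree of isolation. Isolated peaks 50 to 60 kb from their neighbour had a median width of 489.5 bp, those at 100 to 150 kb 507 bp, and those beyond 500 kb 511.5 bp. The share at the minimum width lay between 6.13% and 8.33% in all 7 classes of distance above 50 kb. Below the threshold it was 4.68% at 5 to 10 kb, 5.73% at 10 to 25 kb and 6.68% at 25 to 50 kb. The last lies within the range of isolated peaks, so a raised share is not particular to them. RUNX1 peaks within 5 kb of a RUNX1 or H3K4me3 peak, by contrast, had a median of 747 bp. From 5 kb outward the medians stayed between 461 and 533.5 bp, so the narrowness of isolated peaks is shared by RUNX1 peaks whose nearest neighbour lies only 5 to 50 kb away.

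The widest isolated peaks show that a solitary site can still be broad. The widest lay on chromosome 8 from 105879185 to 105882065 (2881 bp), 60.6 kb from the next RUNX1 peak, and overlapped SMA4. The second spanned 2634 bp on chromosome 20 (25465112 to 25467745). The third and the fourth were on chromosome 3, with 2440 bp (119865637 to 119868076) and 2425 bp (30395017 to 30397441). None of these 3 overlapped SMA4. A peak of 2366 bp followed on chromosome 12 from 82818651 to 82821016, one of 2265 bp on chromosome 3 from 123475297 to 123477561, and one of 2224 bp on chromosome 1 from 24647817 to 24650040. The last of these sat in a region rich in peaks, with 77 other RUNX1 and 26 H3K4me3 peaks within 1 Mb, although its nearest neighbour was 91.7 kb away. The other 3 of the 10 widest had no H3K4me3 peak within 1 Mb, and all of them overlapped SMA4. Those were a peak of 2252 bp on chromosome 3 (83370109 to 83372360), one of 2219 bp on chromosome 21 (23793003 to 23795221) and one of 2184 bp on chromosome 4 (65747958 to 65750141). In total, 4 of the 10 widest isolated peaks overlapped SMA4, against 2.56% of all RUNX1 peaks. Above 1024 bp, the share was 11.5% in isolated and 8.45% in grouped distal peaks. It was 4.64% in single and 4.39% in grouped peaks near the mark. No share was computed for other RUNX1 peaks as wide as these 10. Whether SMA4 goes with a lack of H3K4me3 peaks was not tested on so few.

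Isolated peaks had fewer marked promoters around them, at the median, than the other kinds of RUNX1 peak. No value for random positions in the genome was computed, so sparseness relative to the genome was not tested. Within 1 Mb on either side they had a median of 7 H3K4me3 peaks (quartiles 4 and 12), against 10 for grouped distal peaks, 10 for single peaks near the mark and 16 for grouped peaks near the mark. They had a median of 24 other RUNX1 peaks in that window, against 26 for single peaks near the mark, which also have no RUNX1 peak within 50 kb, 39 for grouped distal and 48 for grouped peaks near the mark. The inner 50 kb of the window is emptied by the rule, so part of this difference is built in. No H3K4me3 peak at all lay within 1 Mb of 173 isolated peaks (6.15%, exact 95% interval 5.29 to 7.10%), against 0.855% of all RUNX1 peaks. Grouped distal peaks gave 1.45%, and both kinds near the mark could give none, since by definition they have the mark within 50 kb. No other RUNX1 peak lay within 1 Mb of 47 isolated peaks (1.67%, against 0.15% of all RUNX1 peaks). Both grouped kinds could likewise give none by definition, and single peaks near the mark gave 8 of 1643 (0.487%). With a lower quartile of 4 H3K4me3 peaks, most isolated peaks were not in megabases empty of the mark.

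The 10 most remote isolated peaks had neither a RUNX1 nor an H3K4me3 neighbour within 1 Mb. The most remote lay on chromosome 16 from 62673003 to 62673610 (608 bp), 3379 kb from the nearest RUNX1 peak and 3767 kb from the nearest H3K4me3 peak. On chromosome 4, the peak from 30718897 to 30719399 (503 bp) was 2996 kb from its nearest neighbour. The next RUNX1 peak to its right, from 33852024 to 33852535 (512 bp), was also among the 10, so these 2 solitary peaks faced each other across 3133 kb. A peak of the minimum width on chromosome 9, from 11928181 to 11928401, lay 2227 kb from any other. The remaining ones lay on chromosome 2 from 91847821 to 91848273, chromosome X from 93998390 to 93998848, chromosome 6 from 93327082 to 93328057, chromosome 9 from 68799219 to 68799561, chromosome 4 from 180239214 to 180239459 and chromosome 13 from 89572087 to 89572735. Their nearest neighbours were 1966, 1939, 1922, 1847, 1812 and 1796 kb away, in that order. The 10 peaks were 221 to 976 bp wide with a median of 481 bp, close to the 506 bp of all isolated peaks.

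Of these 10, only the chromosome 13 peak overlapped SMA4. The peak at 68799219 on chromosome 9 came within 0.025 kb of an SMA4 peak without touching it, and 4 SMA4 peaks lay within 1 Mb. The chromosome X peak closed the longest stretch of that chromosome with no RUNX1 or H3K4me3 peak, 8.70 Mb. The longest such stretch of a chromosome had an isolated peak at its edge on 12 of 23 chromosomes, with 13 such peaks in all. A RUNX1 peak at such an edge already meets the rule on that side, and no share for other gaps was computed. Peaks beside unassembled or repeated sequence were not removed.

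Isolated peaks often followed one another. Runs of neighbouring RUNX1 peaks that were all isolated, with no H3K4me3 peak between them, numbered 597 and held 1513 of the 2815 peaks (53.7%). The other 1302 peaks were alone in this sense too. Part of this follows from the rule, since an empty gap of over 50 kb is shared by the peaks on both its sides. No value for a random order of peaks is given, so the share in runs is a description. There were 20 runs of 5 or more peaks, with 113 peaks over 47.3 Mb. The run with the most peaks lay on chromosome 3 from 81980862 to 87040428, where 8 isolated peaks were strung over 5.06 Mb at a median spacing of 190 kb. It included the broad SMA4-overlapping peak of 2252 bp described above, and also a peak at the minimum width.

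The second run by number of peaks, and the longer in sequence, held 7 peaks over 5.28 Mb on chromosome 7 from 79541622 to 84816815, of which 2 overlapped SMA4. The third held 7 peaks over 3.71 Mb on chromosome 11 from 23591087 to 27303451. None of its RUNX1 peaks overlapped SMA4, although 3 SMA4 peaks lay within its span. The fourth, on chromosome 4 from 62804069 to 66536374, held 6 peaks over 3.73 Mb, among them the one of 2184 bp with SMA4. The fifth, on chromosome 5 from 104144665 to 107253111, held 6 peaks over 3.11 Mb, 1 of which overlapped SMA4. SMA4 overlap was 3.30% for isolated peaks outside runs, 3.57% in runs of 2 to 4 peaks and 4.42% in runs of 5 or more (5 of 113, exact 95% interval 1.45 to 10.0%). These intervals overlapped.

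The density of isolated peaks spanned as wide a range between chromosomes as that of all RUNX1 peaks only with chromosome 19 included. Density was taken over the span from the first to the last peak of the 3 lists on a chromosome. RUNX1 peaks ranged from 5.95 per Mb on chromosome X to 27.0 per Mb on chromosome 19. Isolated peaks ranged from 0.306 per Mb on chromosome 19 to 1.38 per Mb on chromosome 10, and X had 0.486 and chromosome 16 had 0.677 per Mb. Over all 23 chromosomes the highest density was 4.52 times the lowest for isolated peaks and 4.54 times for RUNX1 peaks. Without chromosome 19, which held 18 isolated peaks, isolated peaks ran from 0.486 to 1.38 per Mb. RUNX1 peaks then ran from 5.95 to 26.4 per Mb, a wider range. The order differed: chromosome 19 was densest in RUNX1 peaks and sparsest in isolated ones.

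As a share of RUNX1 peaks, isolated ones were most frequent on chromosome 18 (75 of 582, 12.9%, exact 95% interval 10.3 to 15.9%), chromosome 5 (12.4%) and chromosome 4 (11.7%). Chromosomes 18 and 4 are known as gene-poor. Isolated peaks were rarest on chromosome 19 (18 of 1586, 1.13%, exact 95% interval 0.674 to 1.79%), chromosome 17 (3.75%) and chromosome 22 (4.04%), where H3K4me3 peaks were dense, at 16.5, 10.1 and 9.43 per Mb. Chromosomes 18, 5 and 4 had 2.54, 3.13 and 2.54 H3K4me3 peaks per Mb. Between these extremes the 2 orders differed. Chromosome X had 2.77 H3K4me3 peaks per Mb and an isolated share of 8.18%, and chromosome 10 had 3.91 and 10.5%. Chromosomes 18, 5 and 4 cannot be ordered among themselves, since their intervals overlapped, and a dense chromosome leaves less room for isolation by the rule. Chromosomes 2 to 5 together held 30.1% of isolated peaks and 22.6% of all RUNX1 peaks. Chromosomes 17 and 19 held 3.48% and 10.1%. Median width by chromosome ran from 425 to 558 bp over the 22 chromosomes with at least 20 isolated peaks.

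**Figure D3:**
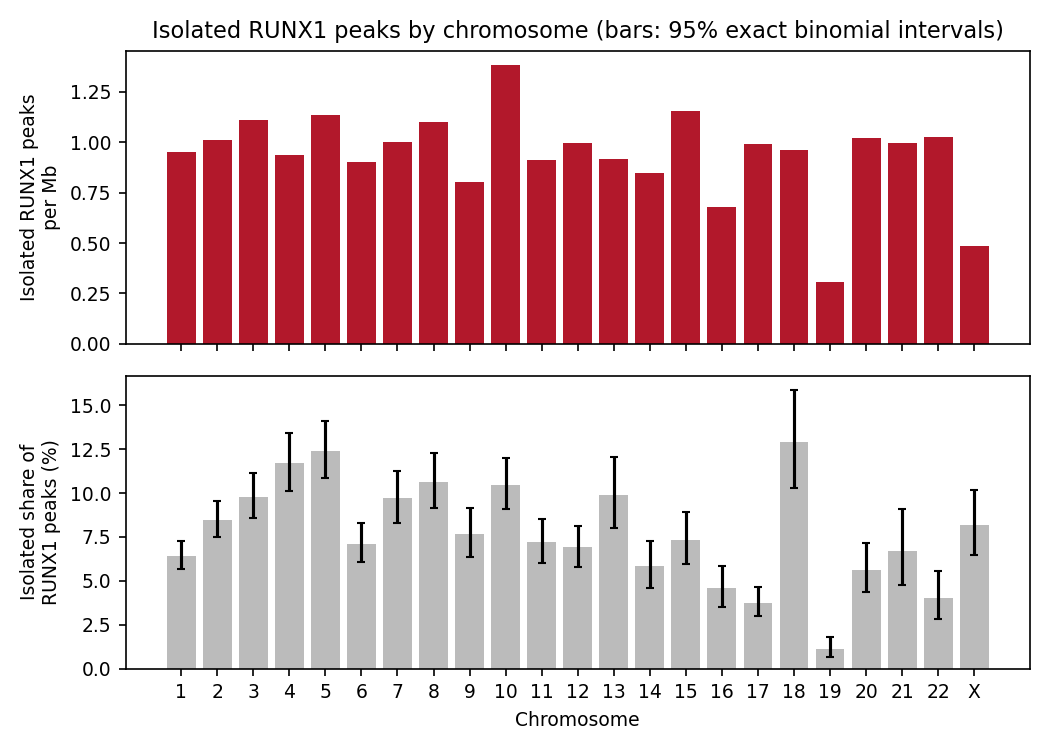
Isolated RUNX1 peaks per Mb (upper panel) and as a share of the chromosome's RUNX1 peaks with exact 95% binomial intervals (lower panel, %), for chromosomes 1 to 22 and X. The share is highest on chromosome 18 (12.9%) and lowest on chromosome 19 (1.13%).

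SMA4 was the 1 readout that the rule did not use. Of the 2815 isolated peaks, 98 overlapped an SMA4 peak by at least 1 bp (3.48%, exact 95% interval 2.84 to 4.23%), against 2.56% of all RUNX1 peaks. The share was 3.13% in grouped distal peaks (305 of 9745), 4.08% in single peaks near the mark (67 of 1643) and 2.09% in grouped peaks near the mark (470 of 22533). The isolated share exceeded that of grouped peaks near the mark by 1.40 percentage points (95% interval 0.749 to 2.16). It differed by 0.351 points from grouped distal peaks (interval -0.364 to 1.16) and by -0.597 points from single peaks near the mark (interval -1.83 to 0.535), and both intervals include 0. These intervals cover counting error only and treat peaks as independent. The SMA4 list is short, with 1475 peaks, and came from another batch and another peak-calling pipeline than the RUNX1 list.

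Width and SMA4 overlap went together, and isolated peaks are narrow, so shares were also taken within 4 width classes, of about equal size in the whole RUNX1 list. In the narrowest class, 221 to 380 bp, 9 of 984 isolated peaks overlapped SMA4 (0.915%), against 0.747% of grouped distal peaks, 0.427% of grouped peaks near the mark and 2.88% of single peaks near the mark (3 of 104). In the second class, up to 645 bp, 30 of 916 did (3.28%, exact 95% interval 2.22 to 4.64%), against 1.04% of grouped peaks near the mark (interval 0.782 to 1.35%), 2.07% of grouped distal peaks (interval 1.58 to 2.66%) and 2.03% of single peaks near the mark.

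In the third class, up to 1024 bp, the isolated share was 4.80% (33 of 688), against 4.44% of single peaks near the mark, 3.87% of grouped distal peaks and 1.86% of grouped peaks near the mark. In the widest class it was 11.5% (26 of 227, exact 95% interval 7.62 to 16.3%). In that class grouped distal peaks gave 8.45%, single peaks near the mark 4.64% (interval 3.28 to 6.33%) and grouped peaks near the mark 4.39% (interval 3.91 to 4.91%). At widths above 1024 bp, SMA4 overlap was thus more frequent in both kinds of peak away from the mark than in both kinds near it, and the interval of isolated peaks overlapped that of grouped distal peaks. The range above 1024 bp is open at the top, and isolated peaks in it were narrower (median 1259 bp) than grouped peaks near the mark (1410 bp).

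**Figure D4:**
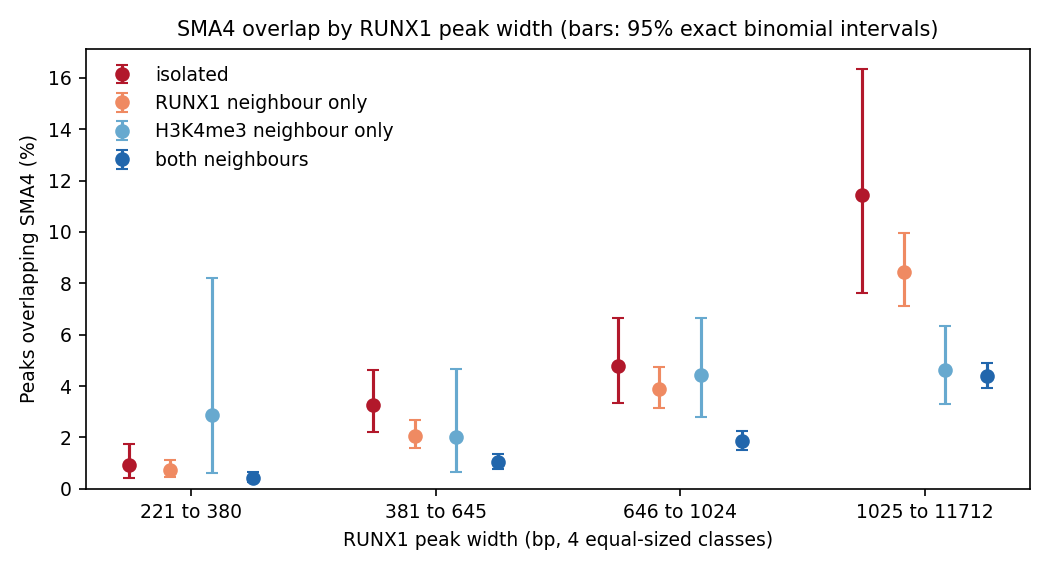
Share of RUNX1 peaks overlapping SMA4 (vertical axis, %) in 4 width classes (horizontal axis, bp), with 1 point for each kind of neighbourhood and exact 95% binomial intervals. In the widest class isolated peaks reach 11.5% and grouped peaks near the mark, drawn as "both neighbours", 4.39%.

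SMA4 overlap was higher among the more remote isolated peaks. It was 2.37% at 50 to 60 kb from the nearest peak (12 of 506), 2.67% at 60 to 75 kb, 2.80% at 75 to 100 kb and 2.91% at 100 to 150 kb. It was then 5.46% at 150 to 250 kb (19 of 348), 5.58% at 250 to 500 kb (14 of 251) and 6.72% beyond 500 kb (9 of 134, exact 95% interval 3.12 to 12.4%). The classes were set after earlier results were known, and neighbouring intervals overlapped. On either side of 150 kb, a division chosen after these shares were seen, the values were 2.69% (56 of 2082) and 5.73% (42 of 733), a difference of 3.04 percentage points (95% interval 1.38 to 5.06). Over all widths, the share up to 150 kb was close to the 2.56% of all RUNX1 peaks, which were wider (median 645 bp). Whether the higher share of isolated peaks lay mainly beyond 150 kb therefore cannot be read from this comparison. RUNX1 peaks that were not isolated gave 2.69% within 5 kb and 2.31% at 5 to 10 kb. They gave 1.66% at 10 to 25 kb and 1.91% at 25 to 50 kb.

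Isolated RUNX1 peaks on the 2 sides of 150 kb had median widths of 507 and 503 bp, and the SMA4 peaks overlapping them had medians of 237 bp (n = 57) and 307 bp (n = 44). Within the 4 width classes, from narrow to wide, the shares were 0.141%, 2.73%, 4.16% and 8.82% up to 150 kb and 2.93%, 5.0%, 6.56% and 19.3% beyond it. The last share rests on 11 of 57 peaks (exact 95% interval 10.0 to 31.9%) and the first on 1 of 711. In these classes grouped distal peaks gave 0.747%, 2.07%, 3.87% and 8.45%. Grouped peaks near the mark gave 0.427%, 1.04%, 1.86% and 4.39%, and single ones 2.88%, 2.03%, 4.44% and 4.64%. Up to 150 kb, the shares of isolated peaks were thus above those of both grouped kinds in all but the narrowest class. Their intervals overlapped those of grouped distal peaks. The mean number of SMA4 peaks within 1 Mb, any overlapping one included, ran from 1.13 to 1.37 in the 4 classes from 50 to 150 kb. It was 1.25 at 150 to 250 kb, 1.06 at 250 to 500 kb and 0.784 beyond 500 kb. The 42 remote peaks with SMA4 lay on 15 chromosomes. Whether batch, pipeline or sequence prone to mapping artefacts has a part in this was not tested.

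**Figure D5:**
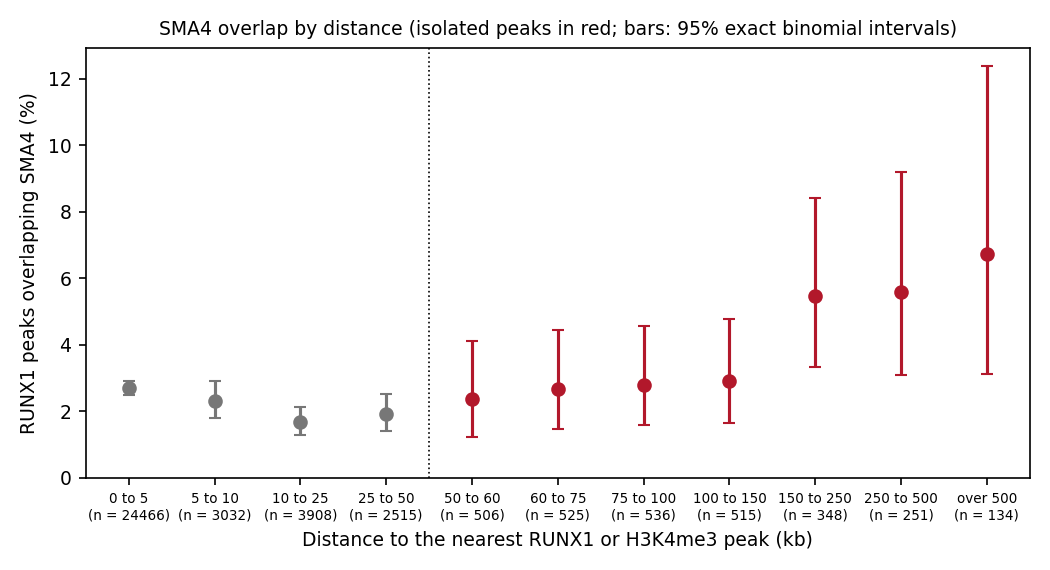
Share of RUNX1 peaks overlapping SMA4 (vertical axis, %) by distance to the nearest RUNX1 or H3K4me3 peak (horizontal axis, classes in kb), with exact 95% binomial intervals; isolated peaks, right of the dotted line, are red. The share lies between 2.37% and 2.91% from 50 to 150 kb and between 5.46% and 6.72% beyond 150 kb.

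When an SMA4 peak was near an isolated RUNX1 peak, it was mostly on it. Within 1 kb, 101 isolated peaks had SMA4 (3.59%, against 3.13% of all RUNX1 peaks). Within 10 kb it was 108 (3.84%, against 5.85%), and within 50 kb 143 (5.08%, against 11.1%). The order thus turned with the window: isolated peaks carried SMA4 slightly more often than RUNX1 peaks as a whole, yet had it in their surroundings less often. An SMA4 peak within 10 kb that did not overlap was found for 10 isolated peaks (0.355%, against 3.29% of all RUNX1 peaks) and for 439 grouped distal peaks (4.50%). A grouped peak can have SMA4 nearby on another RUNX1 peak, which the rule does not allow for an isolated one. Single peaks near the mark, which have no other RUNX1 peak within 50 kb either, gave 8 such peaks of 1643 (0.487%). SMA4 lay within 50 kb of 86 of these single peaks (5.23%) and overlapped 67, so the pattern is not particular to isolated peaks.

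The position of SMA4 within isolated RUNX1 peaks was also measured. The 98 isolated peaks held 101 SMA4 peaks, 6.85% of the SMA4 list, and 3 isolated peaks held 2 each. The centres of the paired peaks were a median of 100.5 bp apart (quartiles 54 and 166.5 bp), and 50 of 101 pairs were within 100 bp. For the other RUNX1 peaks the median was 155.5 bp, but those peaks were wider, with a median of 1120 bp among the overlapping ones against 711.5 bp. No value for random placement was computed, so the offsets do not show a preference for the centre. The SMA4 peak lay wholly inside the RUNX1 peak in 73.3% of the pairs at isolated peaks and in 86.3% of those at other RUNX1 peaks. As a share of the RUNX1 peak's half-width the medians were 24.7% and 28.7%. SMA4 peaks at isolated RUNX1 peaks were 266 bp wide at the median (quartiles 186 and 371 bp), and those at other RUNX1 peaks 222 bp (quartiles 177 and 322.5 bp). Isolated RUNX1 peaks with SMA4 were wider than those without, with medians of 711.5 and 498 bp, and lay farther from other peaks, with medians of 120 and 90.3 kb. Only 1 of the 98 had the minimum width, against 206 of the other 2717.

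Among the 10 widest isolated peaks with SMA4, 6 ranked below the 10 widest of all. They lay on chromosome 11 from 102430578 to 102432722, chromosome 7 from 106407184 to 106409244, chromosome 15 from 25008709 to 25010758, chromosome 4 from 133186838 to 133188440 and from 133920765 to 133922131, and chromosome 5 from 157861716 to 157863011. On chromosome 4, the peak from 133186838 held 2 SMA4 peaks, from 133186825 to 133187120 and from 133187547 to 133187911. The second of these was 90 bp from the RUNX1 centre, and the first extended past the RUNX1 peak's left edge. Its neighbour from 133920765 held an SMA4 peak only 17 bp off centre, from 133921307 to 133921555, and each of the 2 RUNX1 peaks had 7 SMA4 peaks within 1 Mb. On chromosome 21 the SMA4 peak from 23793702 to 23794271 was 570 bp wide, the widest among these 10 RUNX1 peaks, and lay 125.5 bp off centre. In the widest isolated peak, on chromosome 8, the SMA4 peak spanned 316 bp and was 299.5 bp off centre.

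By chromosome, 15 of 23 had a higher SMA4 share in isolated peaks than in their other RUNX1 peaks. Some of these differences were slight, as on chromosome 3 (3.23% against 3.20%). Others rested on few peaks, as on X (2 isolated peaks with SMA4, 2.70% against 2.53%). The count of chromosomes was not tested. The largest counts were 12 of 179 isolated peaks on chromosome 4 (6.70%) and 11 of 159 on chromosome 7 (6.92%), followed by 8 of 237 on chromosome 1 (3.38%) and 8 of 205 on chromosome 5 (3.90%). No isolated peak on chromosomes 14, 16, 17, 20 and 22 overlapped SMA4. With 74, 61, 80, 64 and 35 isolated peaks there, a count of 0 allows shares of up to 4.05%, 4.92%, 3.75%, 4.69% and 8.57% (3 peaks of the total), and the exact 95% intervals reach 4.86%, 5.87%, 4.51%, 5.60% and 10.0%, so no absence can be read from them.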

How the data were processed

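The authors deposited 1 list of peak positions per library in hg19, the build in the submitters' processing notes, which also name MACS2 and SEACR without versions. Per the file headers, the RUNX1 and H3K4me3 peaks came from MACS2 (batch 2) and the SMA4 peaks from cutruntools at a q-value threshold of 0.01 (batch 3). The aligner and the MACS2 threshold were not given in the sources used here. Deposited values are starts and ends in base pairs, with no other measure per peak.

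Starts were written 1-based. Distances ran edge to edge, and overlap meant at least 1 bp shared. The distance and overlap code was tested on simulated data. Shares have exact (Clopper-Pearson) 95% intervals, differences of shares Newcombe intervals, and medians order-statistic intervals (Python 3.11.15, numpy 2.4.6, pandas 2.3.3, scipy 1.17.1, statsmodels 0.14.6). They cover counting error only. With 1 library per antibody and members chosen by position, no test was run. Members, classes and comparisons were chosen with earlier results of these data known. Named peaks are the 10 most remote, the 10 widest, the 10 widest with SMA4, the 5 runs with the most peaks and the 3 on either side of the threshold. Motif searches were not run, as a genome of this build was not used here.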

Additional observations from a re-analysis of the deposited data

Results flagged for a closer look

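Chromosome Y was outside the comparisons above. Of its 32 RUNX1 peaks, 11 were isolated by the same rule (34.4%, exact 95% interval 18.6 to 53.2%), against 7.66% on the chromosomes compared. They are listed here because this chromosome was left out of the comparisons. They were 221 to 777 bp wide (median 439 bp), 2 had the minimum width, and their nearest neighbours were 54.2 to 1558 kb away. None overlapped SMA4, whose list held 4 peaks on this chromosome, while the H3K4me3 list held 18.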

How the results depend on the processing

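Of 38 values recomputed under alternative settings, 28 stayed within the limits set. These limits were the 95% interval of the reported value or, for the number of peaks, 1.5 times of it. The 28 include those for merging touching peaks, which could not move because no peaks touched. With a distance of 25 kb, 5330 peaks were isolated, 2.74% overlapped SMA4 and the median number of H3K4me3 peaks within 1 Mb was 9. With 100 kb, 1248 peaks were isolated, 4.57% overlapped SMA4 and that median was 5. Leaving out minimum-width peaks gave a median width of 531 bp and a median of 6 H3K4me3 peaks. Isolated peaks at or above the list's median width of 645 bp overlapped SMA4 in 6.44% of cases, and the other RUNX1 peaks of that width in 3.89%. The latter pool 3 kinds of peak, most of them grouped near the mark. In the third and the widest width class, grouped distal peaks gave 3.87% and 8.45%. Isolated peaks gave 4.80% and 11.5% there, with overlapping intervals. A window of 500 kb held a median of 3 H3K4me3 peaks. Midpoint distances, merged peaks (none touched), all sequences, stricter or looser SMA4 overlap and, added after the data were seen, leaving out the 13 peaks beside the longest empty stretches left the other values in their intervals. Of the 10 widest isolated peaks, 4 were isolated at 100 kb. The motif alternative was not run. No paired analysis was possible because each antibody had 1 library. Without read counts, a missing neighbour cannot be told from one below the threshold.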

Other observations

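The H3K4me3 list gave a different picture under the same rule. Of 13181 H3K4me3 peaks, 252 (1.91%) had no other H3K4me3 peak and no RUNX1 peak within 50 kb. Their median width was 179 bp, the minimum of that list, against 938 bp for all H3K4me3 peaks. Exactly 150 of them had this width (59.5%, exact 95% interval 53.2 to 65.6%), against 7.45% of the whole list, whereas 7.35% of isolated RUNX1 peaks had the minimum width of theirs. The widest isolated H3K4me3 peak was 1153 bp, and 1 of the 252 overlapped SMA4 (0.397%, against 2.39% of all H3K4me3 peaks).

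Seen from the SMA4 list, 166 of 1475 SMA4 peaks lay within 50 kb of an isolated RUNX1 peak and 101 of these overlapped it (60.8%). Of the 1066 SMA4 peaks within 50 kb of another RUNX1 peak, 871 overlapped one (81.7%).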
